A study of Mus musculus with 8 samples.

Results

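Gapdh and Pgk1 encode enzymes of consecutive steps of glycolysis, and the arrays of this series measured them with 5 probes among 60998 different probe names. They are 2 of the 16 genes that could be named on it, 15 of them through an accession, and their probes were found by name. Gapdh is read by 1 array probe, CUST_14_PI419532418, whose listed accession is a Gapdh transcript in RefSeq and which is spotted 20 times, and by the manufacturer's control probes Mouse-GAPDH_3 and Mouse-GAPDH_5. Pgk1 is read by the control probes Mouse-PGK1_3 and Mouse-PGK1_5 alone. Each control probe has 10 spots, so the 5 probes fill 60 of the 62939 spots of an array. The suffixes 3 and 5 in the control probe names stand here for the 3′ and 5′ ends of the transcript, and the array probe carries no such suffix. The names are used below without the species prefix where the mouse probe is meant.

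The study set hearts 4 weeks after aortic banding against hearts 4 weeks after a sham operation. The banded group comprised 4 male wild type C57BL/6J mice aged 8 to 10 weeks and weighing 24 to 26 g, in which the descending aorta was tied with a silk suture against a 26-gauge needle that was then withdrawn. The sham group comprised 4 mice of the same strain, sex, genotype, age and weight range that had a similar operation. Neither group carried an engineered allele, and pentobarbital anaesthesia was common to both. Banding narrows the aorta, so that the left ventricle pumps against raised pressure, and it is a standard mouse model of cardiac hypertrophy. Total RNA of each heart was amplified with random primers along the whole transcript, per the labels' protocols, labelled with the dye Cy3 and hybridised to 1 single-colour Agilent array per mouse. No gene of the 33 fixed as markers of heart cell types is named on the array, so the tissue label could not be checked against such markers.

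Glyceraldehyde phosphate dehydrogenase, the product of Gapdh, oxidises glyceraldehyde phosphate and passes electrons to NAD+. Phosphoglycerate kinase, the product of Pgk1, then moves the phosphate onto ADP and makes the first ATP that glycolysis returns. The heart draws most of its energy from fatty acids, and hypertrophied hearts are known for a greater use of glucose. Gapdh is also widely taken as a loading control in expression work, and both genes are textbook targets of hypoxia-inducible factors, which bind short core motifs in DNA.

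The promoters of both genes are shown because they are the stretches in which such motifs are usually sought. They run from 250 bases before to 50 bases after the annotated start, come from RefSeq on build GRCm38.p6 and are written along the gene's own strand. Capitals mark every ACGTG or GCGTG, the hypoxia cores, on either strand, so a core on the opposite strand reads CACGT or CACGC.
Gapdh, chr6:125165724-125166023, minus strand: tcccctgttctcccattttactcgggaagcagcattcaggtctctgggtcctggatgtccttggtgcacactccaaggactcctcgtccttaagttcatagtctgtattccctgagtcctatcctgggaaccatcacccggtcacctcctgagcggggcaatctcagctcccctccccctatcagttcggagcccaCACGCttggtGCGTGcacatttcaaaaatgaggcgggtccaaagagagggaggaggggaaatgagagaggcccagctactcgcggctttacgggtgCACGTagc
Pgk1, chrX:106186850-106187149, plus strand: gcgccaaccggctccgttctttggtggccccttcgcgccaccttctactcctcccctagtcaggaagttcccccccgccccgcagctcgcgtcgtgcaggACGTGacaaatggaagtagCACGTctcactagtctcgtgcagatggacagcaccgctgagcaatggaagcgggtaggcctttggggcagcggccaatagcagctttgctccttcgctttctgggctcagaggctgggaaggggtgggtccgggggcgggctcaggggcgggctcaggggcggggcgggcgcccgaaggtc

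The Gapdh window held 3 hypoxia cores, which began 54 and 44 bases before the start and at base 43 after it. The Pgk1 window held 2, which began 150 and 131 bases before the start. Of 27025 mouse promoters of the same length, 43.8% held at least 1 core of either kind and 20.8% held at least 2, so such matches are common. Cores were counted on each strand, so a stretch CACGTG, which neither window holds, counts as 2 in these shares. The Pgk1 window also held the CCAAT box, with letters CCAAT, once on the gene's strand and the GC box GGGCGG 5 times over both strands, whereas the Gapdh window held neither. On either strand CCAAT occurred in 37.9% and GGGCGG in 35.9% of promoters. The TATA box, searched as TATAAA on both strands, was in neither window and in 14.2% of all promoters. These matches describe letters only, and binding was not measured.

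The scanner software flagged every spot of the 5 probes as well above background on each array, and no spot as saturated. Processed signal, the scanner's background-subtracted fluorescence in arbitrary units, is the starting value throughout. The coefficient of variation between spots of a probe on 1 array was 1.32% to 8.19%. The standard error of a probe's log2 signal from its spots was 0.006 to 0.035. Spots flagged as outliers were left out; they were 8 of 160 for the Gapdh array probe and 6 of 320 for the 4 control probes together. The precision of a group comparison is therefore limited by the number of arrays and not by the spots.

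The arrays did not differ from one another as 8 separate mice would be assumed to differ, and this bears on each comparison below. Spot positions placed the arrays in 2 rows of the slide. Row 2 held banded 2, banded 3, banded 4 and sham 1, and row 1 held banded 1, sham 2, sham 3 and sham 4. The arrays formed 4 pairs of slide neighbours, and over 15117 bright probes the log2 values of a pair differed 0.969 to 1.34 times as widely as replicate spots of 1 array. All other pairs of arrays differed at least 2.61 times as widely. Banded 2 with banded 3, and sham 3 with sham 4, are neighbours of the same surgery that agree nearly within spot noise, and each such pair was averaged and counted as 1 sample, which leaves 3 banded and 3 sham samples. The other pairs, banded 1 with sham 2 and banded 4 with sham 1, join arrays labelled with different surgeries, so values are also given without them. What the closeness of neighbours comes from was not tested. For the 5 probes, the log2 level differed within a pair by a median of 0.078, with a range of 0.0035 to 0.18 over 20 values.

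Levels are given below as the mean log2 signal of a probe's spots minus the log2 of the array's 75th percentile over all noncontrol probes. The Gapdh array probe stood at 9.88, 10.55, 10.60 and 10.30 on banded arrays 1 to 4, against 10.25, 10.01, 10.19 and 10.04 on sham arrays 1 to 4. Banded 2 and banded 3 were highest, banded 1 was lowest of all 8, and the groups overlapped. In order of level, banded 3 and banded 2 came first and lay as close to each other as their spots, then came banded 4, sham 1 and sham 3, which spanned less than the largest difference within a neighbour pair, then sham 4 and sham 2, and last banded 1. By signal this probe ranked between 10 and 20 among 60915 noncontrol probes on every array.

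The 3′ control probe of the same gene, GAPDH_3, stood at 9.46, 10.16, 10.16 and 9.94 on the banded arrays, against 9.88, 9.56, 9.80 and 9.62 on the sham arrays. The same arrays were high and low as for the array probe, with banded 2 and 3 at the top and banded 1 at the bottom. The 5′ control probe GAPDH_5 stood at 9.13, 9.50, 9.60 and 9.31 on the banded arrays, against 9.26, 9.22, 9.23 and 9.15 on the sham arrays. It kept banded 2 and 3 at the top, but the remaining 6 arrays lay within a narrow band.

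PGK1_3 stood at 7.67, 7.89, 7.96 and 7.58 on the banded arrays, against 7.58, 7.75, 7.42 and 7.30 on the sham arrays. Banded 2 and 3 were again highest, while sham 3 and sham 4 were lowest, so banded 1 was not at the bottom for this gene. PGK1_5 stood at 3.83, 3.35, 3.45 and 3.19 on the banded arrays, against 3.19, 3.85, 3.19 and 3.12 on the sham arrays. Here banded 1 and sham 2, neighbours in row 1, stood above the other 6 arrays, which was seen for none of the other 4 probes. On this scale no probe of either gene separated the surgeries, whereas 3.32% of the 35790 probes tested had groups of 4 arrays without overlap.

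**Figure D1:**
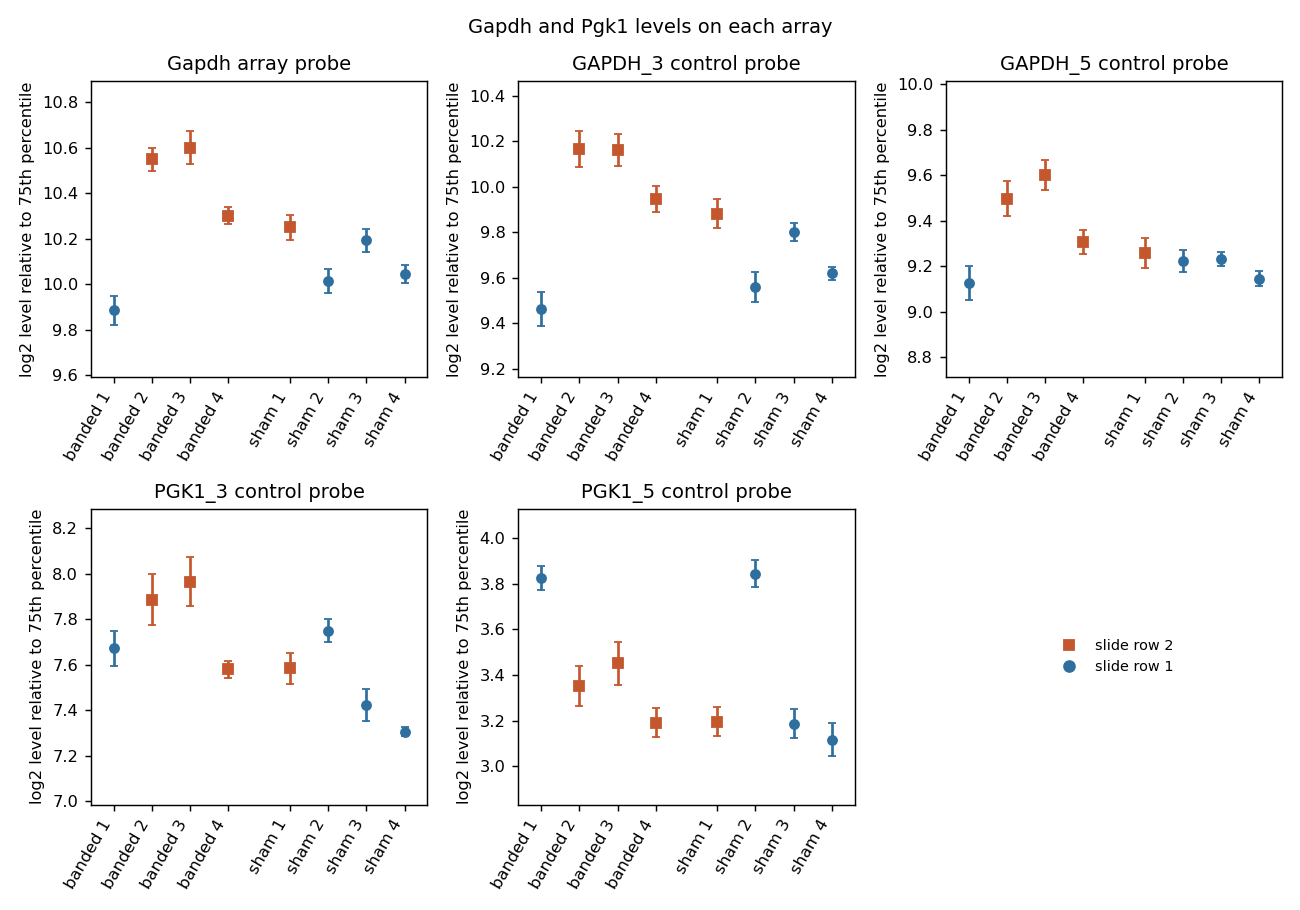
Log2 level relative to the array's 75th percentile (y axis, each panel spanning the same 1.3 log2 units) of the 5 Gapdh and Pgk1 probes on each of the 8 arrays (x axis, 4 banded and 4 sham). Points are means over spots, bars are the SD between spots, squares are slide row 2 and circles slide row 1. The surgeries overlap in every panel, and banded 1 and sham 2 stand apart in the PGK1_5 panel.

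Banding against sham was tested for all probes together with limma, and the question for these members is whether glycolytic transcripts differed in the pressure-loaded heart. The Gapdh array probe averaged 10.25 ± 0.35 in banded samples and 10.13 ± 0.12 in sham samples (SD, n = 3 each), a log2 difference of 0.13 with a standard error of 0.22. As a ratio this is 1.09, with a 95% interval of 0.761 to 1.56, so neither a fall nor a rise within that interval is excluded. The difference did not pass the test (limma, adjusted p = 0.995).

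GAPDH_3 averaged 9.86 ± 0.36 in banded samples and 9.72 ± 0.16 in sham samples (SD, n = 3 each), a log2 difference of 0.14 ± 0.23 (SE). GAPDH_5 averaged 9.33 ± 0.21 in banded samples and 9.22 ± 0.03 in sham samples (SD, n = 3 each), a log2 difference of 0.10 ± 0.18 (SE). All 3 Gapdh probes thus gave log2 differences of 0.10 to 0.14, each smaller than its standard error. PGK1_3 averaged 7.73 ± 0.18 in banded samples and 7.57 ± 0.19 in sham samples (SD, n = 3 each), a log2 difference of 0.16 ± 0.20 (SE). Its ratio was 1.12, with a 95% interval of 0.815 to 1.53. PGK1_5 averaged 3.47 ± 0.32 in banded samples and 3.40 ± 0.39 in sham samples (SD, n = 3 each), a log2 difference of 0.08 ± 0.27 (SE). The adjusted p of limma was 0.995 for each of these 4 control probes too.

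The members' result was that of the array as a whole. Of 35790 probes tested, 0 (0%) passed an adjusted p of 0.05 in limma, and 726 (2.03%) had an unadjusted p under 0.05, of which 200 were higher and 526 lower in banded samples. The median size of the log2 difference over all tested probes was 0.168 with close arrays averaged, so the members' 0.08 to 0.16 lay below it. With all 8 arrays counted separately that median was 0.214. GAPDH_3 and PGK1_3 then lay above it and the other members below it. Taking each of the 8 arrays as a sample of its own gave 0.21 on the log2 scale for the Gapdh array probe, 0.22 for GAPDH_3, 0.17 for GAPDH_5, 0.26 for PGK1_3 and 0.12 for PGK1_5, and limma's adjusted p was between 0.590 and 0.816.

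The direction of the Gapdh difference depended on the slide row. Within row 1 the array probe stood 0.18 lower in the banded sample than in the sham samples, and within row 2 it stood 0.19 higher. GAPDH_3 differed by -0.17 within row 1 and by 0.17 within row 2, and GAPDH_5 by -0.08 and 0.17. With slide row as a term in the fit, the log2 difference was 0.00 for the array probe and for GAPDH_3, and 0.05 for GAPDH_5. The rows did not give the Pgk1 probes opposite signs, since PGK1_3 differed by 0.12 within row 1 and 0.17 within row 2, and PGK1_5 by 0.33 and 0.10. The interaction of surgery and row was not significant for any of the 5 probes (limma, adjusted p = 1.00 each), and each row held only 1 sample of one surgery.

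Leaving out the neighbours banded 1 and sham 2 moved the log2 difference of the Gapdh array probe to 0.25 and that of PGK1_3 to 0.28, with a limma adjusted p of 0.924 for both. Without all 4 arrays of the mixed-surgery pairs, 1 averaged sample a group was left and no test was possible. The log2 differences were then 0.46 for the array probe, 0.45 for GAPDH_3, 0.36 for GAPDH_5, 0.56 for PGK1_3 and 0.25 for PGK1_5, and these samples differed in slide row as well as surgery, which cannot be told apart. In the other direction, the surgeries were compared only inside the mixed pairs, with the pair as a term in the fit. This gave small negative values of -0.04 for the array probe and PGK1_3 and -0.02 for both GAPDH control probes. The mixed pairs had opposite signs for each Gapdh probe, the array probe giving -0.13 for banded 1 minus sham 2 and 0.05 for banded 4 minus sham 1. For both Pgk1 probes each mixed pair was negative. No setting tried brought a member past the threshold.

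**Figure D2:**
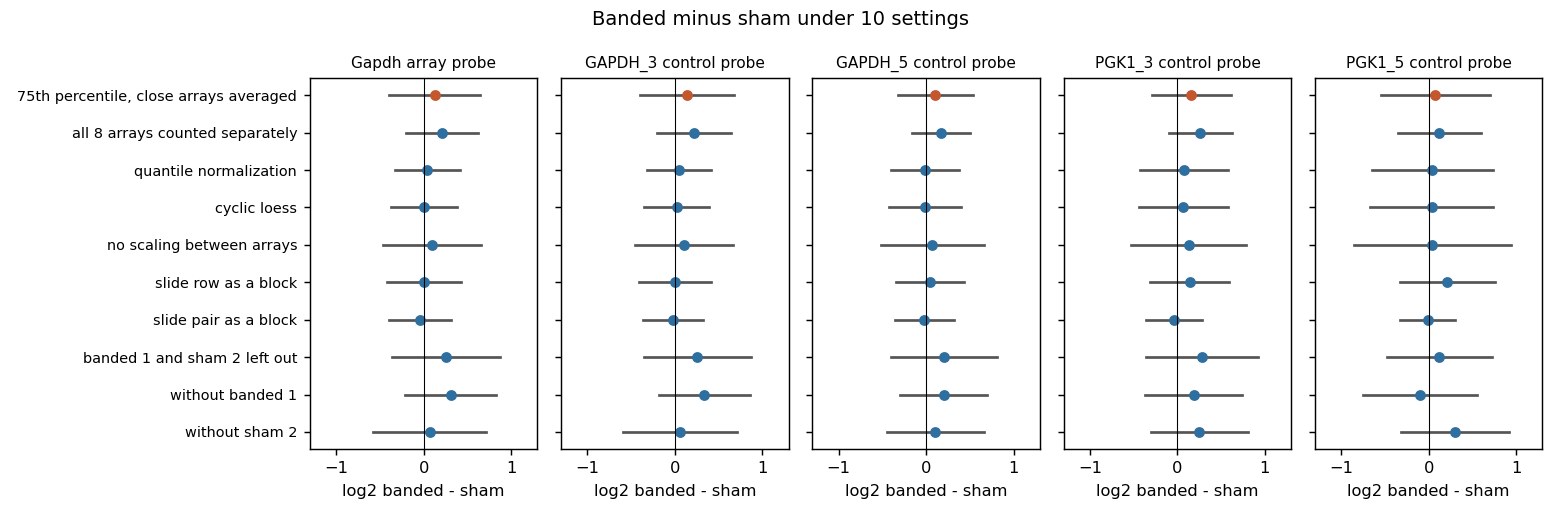
Banded minus sham log2 difference (x axis) of the 5 probes under 10 of the settings tried (y axis). Points are limma estimates and lines are 95% intervals; the orange point is the value in the text. All intervals shown include 0, and the pair block brings all 5 estimates to between -0.04 and -0.01.

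The list of glycolysis and neighbouring sugar metabolism genes held 33 symbols, of which the array names 5. Besides the members these are Gk, glycerol kinase, and G6pd2 and Ldhal6b, known in mouse as testis-expressed relatives of glucose phosphate dehydrogenase and lactate dehydrogenase. Gk and G6pd2 did not pass in either direction, and Ldhal6b was not tested. Gk stood at 0.23 ± 0.46 in banded samples and 0.54 ± 0.09 in sham samples (SD, n = 3 each), a log2 difference of -0.31 ± 0.25 (SE; limma, adjusted p = 0.995). G6pd2 differed by -0.02 ± 0.19 (SE), and Ldhal6b cleared the background on none of the 8 arrays.

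Before scaling, the Gapdh probes varied less over the arrays than the percentile used to scale them. The Gapdh array probe gave 240794, 235903, 221879 and 219583 units on the banded arrays, against 216243, 213113, 218536 and 214703 units on the sham arrays. Each banded array was thus above each sham array, if by a small margin, whereas 0.958% of all tested probes were so before scaling. The unscaled log2 difference of the averaged samples was 0.09 ± 0.25 (SE) and did not pass (limma, adjusted p = 1.00). The highest of the 8 was 1.13 times the lowest. Over the same arrays the 75th percentile ran from 143 to 255 units, a 1.78-fold range.

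Scaling to that percentile therefore widened the spread of Gapdh. The SD of log2 values over 8 arrays was 0.065 before and 0.25 after scaling for the array probe, and 0.076 before and 0.26 after for GAPDH_3. It was 0.13 before and 0.17 after for GAPDH_5. For Pgk1 the order turned, with 0.25 before and 0.22 after for PGK1_3, and 0.47 before and 0.29 after for PGK1_5. The percentile was highest on banded 1 and lowest on banded 3, the arrays at which the scaled Gapdh array probe and GAPDH_5 were lowest and highest. Scaled GAPDH_3 was also lowest on banded 1, but banded 2 and banded 3 shared its top value of 10.16.

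Signal also differed in range between the probes of 1 gene. GAPDH_3 gave 179738, 180797, 163633 and 171546 units on the banded arrays, against 167418, 155517, 166482 and 159844 units on the sham arrays, a 1.16-fold range. GAPDH_5 gave 142484, 113836, 110944 and 110171 units on the banded arrays, against 108737, 123245, 112225 and 115255 units on the sham arrays, a 1.31-fold range. The surgeries overlapped for both, so the separation of the array probe before scaling was not shared by the control probes.

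PGK1_3 gave 51939, 37237, 35686 and 33274 units on the banded arrays, against 34052, 44314, 32044 and 32156 units on the sham arrays, a 1.62-fold range. PGK1_5 gave 3612, 1607, 1563 and 1589 units on the banded arrays, against 1626, 2963, 1699 and 1762 units on the sham arrays, a 2.31-fold range. For both Pgk1 probes the high values were those of banded 1 and sham 2 alone, and the other 6 arrays lay close together.

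**Figure D3:**
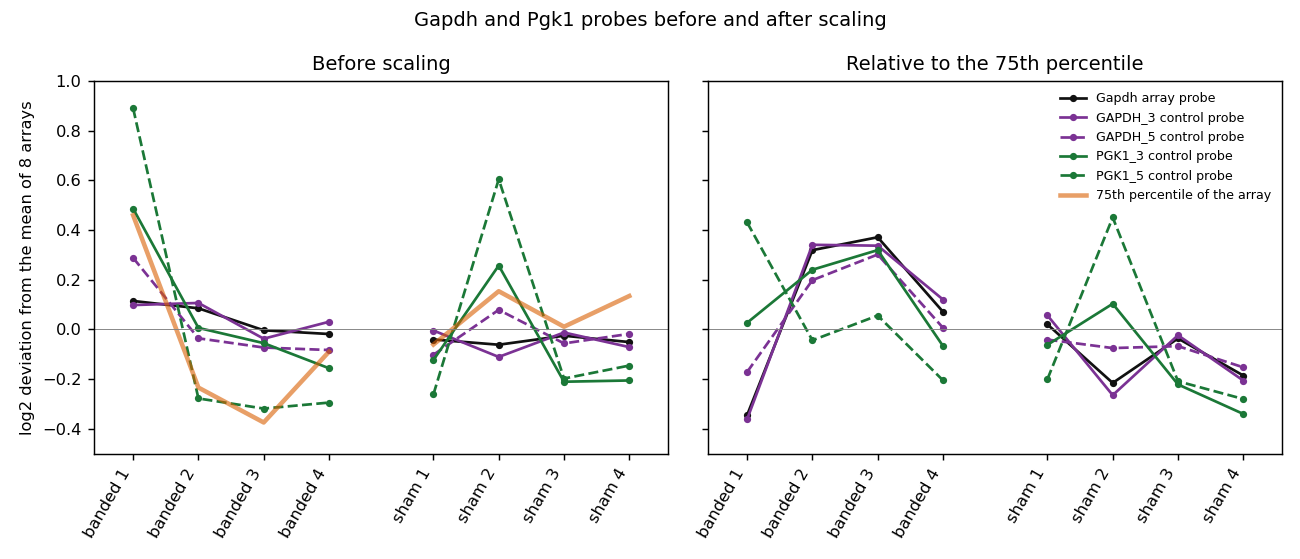
Log2 deviation from the mean of the 8 arrays (y axis) for the 5 probes on each array (x axis), before scaling on the left, with the array's 75th percentile, and relative to that percentile on the right. The Gapdh array probe and GAPDH_3 are nearly flat on the left and spread out on the right. GAPDH_5 is highest at banded 1 and sham 2 on the left and spreads only a little more on the right. PGK1_5 peaks at banded 1 and sham 2 on both sides.

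The probes of both transcript ends were then compared within each array, which removes any common scale. The difference is read between arrays only, because the binding strength of 2 probes is not known to be equal. The GAPDH 3′ minus 5′ difference in log2 signal was 0.34, 0.67, 0.56 and 0.64 on the banded arrays, against 0.62, 0.34, 0.57 and 0.47 on the sham arrays. Banded 1 and sham 2 had the lowest values, 0.335 and 0.336, and the surgeries overlapped. It averaged 0.53 ± 0.17 in banded samples and 0.49 ± 0.15 in sham samples (SD, n = 3 each; two-sided exact permutation test, p = 0.8).

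The PGK1 3′ minus 5′ difference was 3.85, 4.53, 4.51 and 4.39 on the banded arrays, against 4.39, 3.90, 4.24 and 4.19 on the sham arrays. The same pair, banded 1 and sham 2, was lowest. It averaged 4.25 ± 0.36 in banded samples and 4.17 ± 0.25 in sham samples (SD, n = 3 each; exact permutation test, p = 0.7). As a signal ratio the 3′ probe gave 14.4 to 23.2 times the 5′ probe for Pgk1 and 1.26 to 1.59 times for Gapdh, but the ratio also holds each probe's own brightness and is no measure of transcript amount.

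Both sources of the Gapdh value followed each other closely. The array probe minus the mean of both control probes was 0.59, 0.72, 0.72 and 0.68 on the banded arrays, against 0.68, 0.62, 0.68 and 0.66 on the sham arrays. It ranged over 0.59 to 0.72, a ratio of 1.50 to 1.65, and averaged 0.66 ± 0.07 in banded samples and 0.66 ± 0.03 in sham samples (SD, n = 3 each; exact permutation test, p = 0.9). PGK1_3 minus GAPDH_3, the Pgk1 value with Gapdh as its scale, was -1.79, -2.28, -2.20 and -2.37 on the banded arrays, against -2.30, -1.81, -2.38 and -2.31 on the sham arrays. Banded 1 and sham 2 were again set apart from the other 6, here at the high end. Its means were -2.13 ± 0.30 in banded samples and -2.15 ± 0.30 in sham samples (SD, n = 3 each; exact permutation test, p = 0.9). All 4 differences between probes had an adjusted p of 0.9 over the family of 4 exact permutation tests. With 3 samples against 3 the smallest p such a test allows is 0.1. With all 8 arrays counted separately, where it is 0.0286, the exact permutation p was 0.6, 0.486, 0.6 and 0.629 in the order above.

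**Figure D4:**
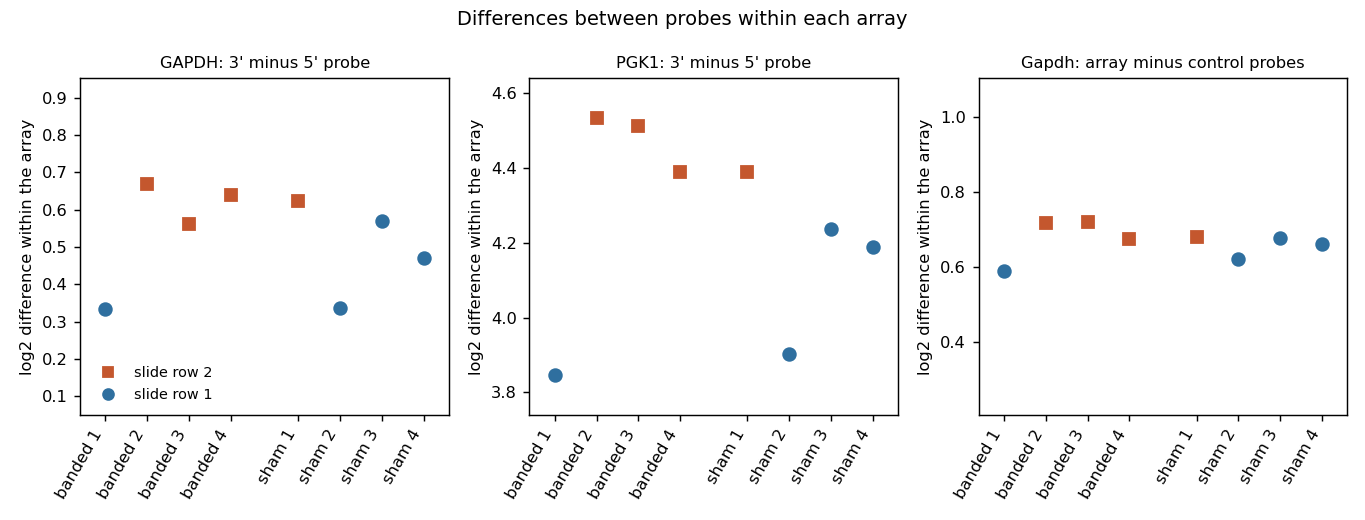
Log2 difference between probes within each array (y axis): GAPDH 3′ minus 5′, PGK1 3′ minus 5′, and the Gapdh array probe minus the mean of both GAPDH control probes, on the 4 banded and 4 sham arrays (x axis), each panel spanning the same 0.9 log2 units. Squares are slide row 2 and circles slide row 1; banded 1 and sham 2 are lowest in all 3 panels.

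After scaling to the percentile, the slide rows separated the Gapdh probes more clearly than the surgeries did. The rows were compared because earlier results of these data had shown that the arrays group by row. The p-values between rows are therefore not those of a grouping fixed without sight of the data. Row 2 arrays averaged 10.42 ± 0.18 and row 1 arrays 10.03 ± 0.13 for the Gapdh array probe (SD, n = 4 each), a ratio of 1.31 (limma, adjusted p = 0.0650). GAPDH_3 averaged 10.04 ± 0.15 in row 2 and 9.61 ± 0.14 in row 1 (SD, n = 4 each), a ratio of 1.34 (limma, adjusted p = 0.0435). GAPDH_5 had a ratio of 1.18 (limma, adjusted p = 0.209). The rows did not overlap for these 3 probes, each higher in row 2, against 16.3% of all tested probes without overlap and higher in row 2 and 10.2% lower. Only GAPDH_3 passed the threshold, against 19.7% of all tested probes, 12.6% higher and 7.11% lower in row 2, so the members' share was near that of the array. Its limma adjusted p was 0.366 with the arrays of a pair averaged and 0.111 with surgery as a term. Under quantile normalization it was 0.571, where the log2 difference was 0.083. The rows then overlapped for the array probe, with a log2 difference of 0.097, and for GAPDH_5, with -0.13. In unscaled signal the rows overlapped for all 3 Gapdh probes, whereas the array probe separated the surgeries. The row difference of scaled levels was not particular to Gapdh. Among other named genes, Hprt, Ppia and Rpl13a had larger row 2 to row 1 ratios of 1.46, 1.69 and 1.75, without overlap, and passed the threshold. Others, such as Hsp90ab1 with 1.16 and Nono with 0.995, overlapped and did not pass.

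The rows overlapped for both Pgk1 probes, with log2 differences of 0.22 for PGK1_3 (limma, adjusted p = 0.366) and -0.20 for PGK1_5 (limma, adjusted p = 0.531). The 3′ minus 5′ difference was larger in row 2 than in row 1, by 0.19 for GAPDH (exact permutation test, p = 0.0571) and by 0.41 for PGK1 (exact permutation test, p = 0.0286, the smallest possible). The array probe minus control probe difference was larger in row 2 by 0.06 (exact permutation test, p = 0.0571). Adjusted over the 4 exact permutation tests of this family, these 3 values stood at 0.0762 each and did not pass. With the arrays of a pair averaged, which leaves 2 values a row, the exact permutation p was 0.333 for each, the smallest such a test allows, and 0.444 after adjustment.

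Control probes named for human and rat GAPDH and PGK1 lie on the same arrays and were examined after the values above were seen. Of 8 such probes, 7 cleared the background on every array with this mouse RNA. The exception, Rat-PGK1_3, is left out of the counts that follow. The 5′ probes behaved alike in unscaled signal. Each of the 6, over mouse, rat and human names, was higher on banded 1 and sham 2 than on any of the other 6 arrays, against 2 of 5 of the 3′ probes. After scaling this held for 5 of 6 of the 5′ probes, the exception being the mouse GAPDH_5, and for 0 of 5 of the 3′ probes. These probes share 2 genes and 8 arrays and are not independent. The pair was picked out by the mouse PGK1_5, which is itself counted among the 5′ probes. The 75th percentile was also highest on banded 1 and sham 2, at 255 and 206 units, with sham 4 next at 203. The share of all tested probes highest on this pair was not counted, so whether these counts are unusual for the array is not known.

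The GAPDH 5′ probes differed in how far their signal spread over the arrays. The mouse probe ran 1.31-fold between its lowest and highest signal at a median of 113031 units. The rat-named probe ran 2.05-fold at 29313 units and the human-named probe 2.20-fold at 16174 units. The 3′ probes spanned less, since even Rat-GAPDH_3 ran only 1.35-fold at a median of 7172 units, while the mouse and human-named GAPDH_3 ran 1.16-fold and 1.24-fold. For PGK1 the mouse, rat-named and human-named 5′ probes ran 2.31-fold, 2.29-fold and 2.30-fold. The mouse and human-named PGK1_3 ran 1.62-fold and 1.57-fold. Every 5′ probe but the mouse GAPDH_5 thus ranged more widely than the 75th percentile, and each 3′ probe of the 5 examined less widely. Rat-PGK1_3, left out because it did not clear the background on every array, ran 12.4-fold.

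**Figure D5:**
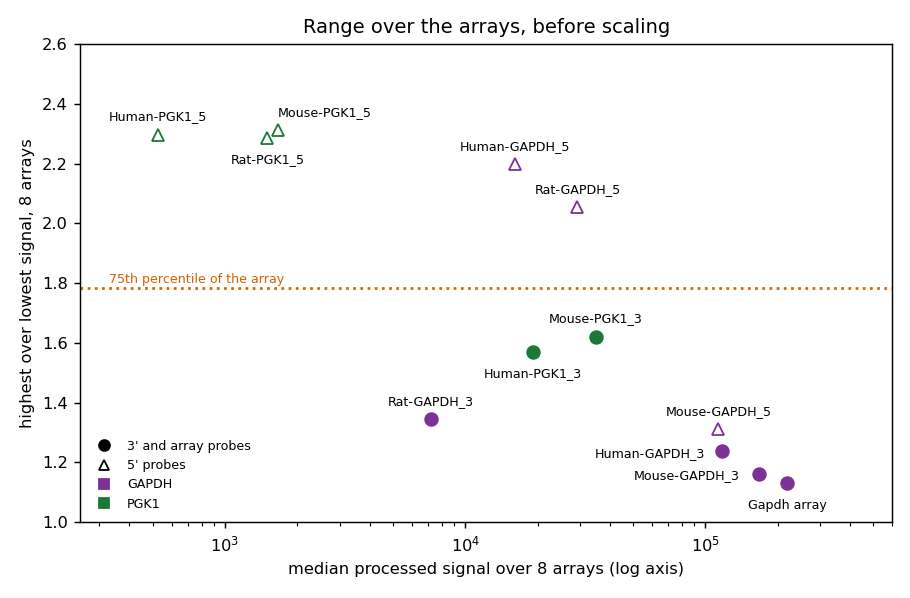
Highest over lowest processed signal across the 8 arrays (y axis) against the median signal (log x axis) for the 5 members and 7 human- or rat-named control probes of the same genes, without Rat-PGK1_3. Open triangles are 5′ probes, filled circles are 3′ and array probes, and the dotted line is the 1.78-fold range of the array's 75th percentile.

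Few other genes can be named on the array, so likeness to the members was read among those alone. Among 13 other named genes that cleared the background everywhere, the log2 difference to the Gapdh array probe varied least for Hprt, with an SD over 8 arrays of 0.154, followed by Ppia at 0.233 and Rpl13a at 0.236. Hprt salvages purines, Ppia is a prolyl isomerase and Rpl13a a ribosomal protein. To PGK1_3 the closest of 14 genes was Hsp90ab1, which encodes a cytosolic chaperone, with an SD of 0.050, then the Gapdh array probe at 0.218 and Nono, a nuclear RNA-binding protein, at 0.248. The levels themselves had an SD of 0.252 for the Gapdh array probe and 0.222 for PGK1_3. Only Hprt and Hsp90ab1 thus lay well below the member's own SD. Ppia, Rpl13a and, for PGK1_3, the Gapdh array probe lay just below it, and Nono lay above it and did not follow PGK1_3. The difference of PGK1_3 to Hsp90ab1 was 1.14, 1.19, 1.19 and 1.26 on the banded arrays, against 1.25, 1.20, 1.29 and 1.27 on the sham arrays. These SDs describe 8 arrays that pair as neighbours, and likeness here says nothing beyond them.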

How the data were processed

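Hearts of 4 banded and 4 sham-operated mice were profiled on single-colour Agilent arrays. The deposited scanner tables hold intensity per spot, the processed signal being background-subtracted by Agilent Feature Extraction 11.0.1.1, per the file headers and the submitters' processing notes, and not scaled between arrays. Flag columns (score values of 0 or 1 for well above background, saturation and outliers) are also deposited. The authors' deposited value table holds log2 values of 60902 probes for which the sources used here state no normalization; its column medians are about 4.92, and its slope on the log2 scanner signal is 0.984 to 1.01 per array. It was used as an alternative.

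Spots of a probe were averaged as log2 signal without outlier-flagged spots, and each array's 75th percentile over noncontrol probes was subtracted. Probes well above background in over 0.5 of their spots on at least 4 arrays were tested with limma 3.58.1 in R 4.3.3 (lmFit, eBayes), with Benjamini-Hochberg adjustment over all tested probes and a threshold of 0.05. Same-surgery arrays spreading at most 1.5 times as widely as replicate spots counted as 1 sample. Differences between probes had two-sided exact permutation tests, adjusted over 4. The labels call the mice independent but give no batch, and p-values measure the spread between these samples. Per the file headers, all arrays share 1 scan. Members, lists and the comparison of slide rows were chosen with earlier results of these data known. Named genes are all member probes, listed sugar metabolism genes, and the 3 genes with the smallest SD of the difference to a member; 15 genes could be named by matching accessions to RefSeq. The mice were taken as unpaired. Deviations of same-numbered arrays correlated at -0.65 to -0.05, but such arrays always lay in opposite slide rows. These correlations therefore cannot show whether replicate numbers pair the mice. The limma step was tested on simulated data. Alternatives covered scaling, background, filters, spots, blocks and left-out arrays. Probe sequences and proteins were not used here.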

Additional observations from a re-analysis of the deposited data

Results flagged for a closer look

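Both values singled out here belong to sham 2, and each lay farther from the other 3 sham arrays than a gap criterion for groups of 4 allows. PGK1_5 stood at a log2 level of 3.85 on sham 2, and the next highest sham array was at 3.19. PGK1_3 minus GAPDH_3 stood at -1.81 on sham 2, and the next highest sham array was at -2.30. Of 18 groups of 4 arrays examined, 2 were singled out. The criterion singles out about 1 in 20 groups of independent arrays by chance. Neighbouring arrays here agree nearly within spot noise and the groups share arrays and probes, so that rate cannot be applied to them. Banded 1, the slide neighbour of sham 2, stood at 3.83 and -1.79 for the same measures, so the neighbours were alike while their labelled surgeries differ. The part of slide position in these values was not tested.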

How the results depend on the processing

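For the 5 probes, 124 of 135 alternatives kept the direction and none of those tested passed the threshold in limma, the lowest adjusted p being 0.396. Changing the background filter cannot move an estimate, and the replicate block repeats the estimates of the arrays counted separately. No test was made without the arrays of both mixed-surgery pairs. With slide pair as a block, the log2 differences reversed to -0.039 for the Gapdh array probe, -0.016 for GAPDH_3, -0.024 for GAPDH_5, -0.041 for PGK1_3 and -0.012 for PGK1_5. GAPDH_5 also reversed to -0.013 under quantile normalization, -0.0095 under cyclic loess and -0.014 in the authors' table. PGK1_5 was -0.20 with banded 1 and sham 1 left out. Leaving out 1 array at a time gave 0.07 to 0.31 for the Gapdh array probe, 0.06 to 0.34 for GAPDH_3, 0.09 to 0.20 for GAPDH_5, 0.14 to 0.25 for PGK1_3 and -0.10 to 0.30 for PGK1_5, where PGK1_5 turned negative without banded 1 or sham 1.

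Of 84 alternatives of the 4 differences between probes, 68 kept the direction, and the lowest adjusted p of the exact permutation test was 0.444. A p under 0.05 was possible only with all 8 arrays counted separately or only arrays within spot noise averaged, where the smallest is 0.0286. Elsewhere the smallest possible p was 0.1 to 0.333, or no test was made, so not passing there was fixed in advance. GAPDH 3′ minus 5′ was -0.045 with slide row as a block and -0.093 within row 1. PGK1 3′ minus 5′ was -0.072 and -0.21 in the same settings, and the array probe minus control probes -0.020 and -0.056. PGK1_3 minus GAPDH_3 was -0.0070 with only arrays within spot noise averaged, -0.22 without banded 1 and sham 1, and -0.0046 within row 2. Leaving out 1 array gave -0.042 to 0.13, -0.048 to 0.29, -0.014 to 0.040 and -0.15 to 0.19 for the 4 differences in that order. GAPDH 3′ minus 5′ and the array probe minus control probes turned negative without banded 4 or sham 2, PGK1 3′ minus 5′ without sham 2, and PGK1_3 minus GAPDH_3 without banded 1 or sham 1. The cause of these reversals was not tested.

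For row 2 minus row 1, GAPDH_3 was 0.43 with pairs averaged, 0.083 under quantile normalization and 0.42 with surgery as a block, and did not pass in any of these. Under quantile normalization GAPDH_5 was -0.13 and PGK1_3 -0.052, while the 3′ minus 5′ differences of 0.22 for GAPDH and 0.24 for PGK1 and the array minus control difference of 0.12 passed, with an adjusted exact permutation p of 0.0381 each over 8 arrays counted separately. Under 75th percentile scaling with pairs averaged, the adjusted exact permutation p of these 3 was 0.444, where no p under 0.333 is possible. The count of probes past the threshold between rows was 7036, and 1427 with pairs averaged.

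Between surgeries the count was 0, including each array left out in turn (0 to 0), but 1 without scaling and 1 with slide row as a block. It was 1003 with banded 1 and sham 1 left out, when surgery and row cannot be told apart. With the replicate block, the log2 differences were 0.21, 0.22, 0.17, 0.26 and 0.12 for the 5 probes in the order above, with limma adjusted p of 0.785 to 0.875, and the block changed no call. Background correction on mean signals was not run because the files used hold median signals, which served instead. That setting and those leaving out pairs of arrays or more were chosen after seeing the data. With 3 samples a group, changes within the 95% intervals are not excluded, and these intervals are no limits of detection.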

Other observations

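Rat-PGK1_3, the control probe named for the 3′ end of the rat gene, gave 89.1 and 85.4 units on sham 3 and sham 4, where all of its 10 spots cleared the background. On the other 6 arrays it gave 7.20 to 10.7 units. Sham 3 and sham 4 are slide neighbours and agree nearly within spot noise over all bright probes. The mouse PGK1_3 was lowest on these 2 arrays in scaled level, at 7.42 and 7.30. No test was made, because the probe was singled out by these values.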
